A study of Mus musculus with 4 samples.

Results

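The genes of the proteasome were described across 4 single-cell libraries of CD8+ T cells taken from mouse tumours. Members were the genes whose symbol begins with Psma, Psmb, Psmc or Psmd followed by a number, together with Psme1, Psme2 and Psme3, which gave 43 of the 31253 genes listed in every file. Of these, 42 are proteasome genes by name and role. The remaining one, Psmc3ip, matches by its letters alone and encodes a factor of meiotic recombination. The 5 interferon-inducible genes Psmb8, Psmb9, Psmb10, Psme1 and Psme2 (the immunoproteasome genes below) were set against 31 constitutive genes of the core particle and the regulatory cap.

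Every tumour was of MB49 cells, a murine bladder cancer line, and each library pooled sorted CD45+ CD8+ T cells of 3 mice. The KO library came from BFAR-CD8-KO mice, and the WT library from wild-type mice with the same subcutaneous tumours. Both are labelled C57BL/6Slac and aged 10 to 12 weeks. The Aged and Young libraries came from T cells of donors of 18 months and of 8 weeks, injected intravenously into Rag1-/- hosts of 8 to 10 weeks when the tumour cells were given. The host strain is written B6.129S7-Rag1tm1Mom/J for Aged and B6.129S7-Rag1tm0Mom/J for Young. Hosts that lack Rag1 cannot rearrange antigen receptors and so hold no T or B lymphocytes of host origin. Each group is 1 library, so there is no spread between replicates, no test was possible, and every interval (95%, in parentheses) covers counting error only. The kit differs between the KO and WT pair and the Aged and Young pair, so levels are compared within a pair.

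The proteasome degrades proteins that carry ubiquitin chains. Its core particle is a barrel of alpha rings, which gate the entrance, around beta rings, which hold the catalytic sites, and a regulatory cap of ATPase and non-ATPase subunits recognises, unfolds and feeds in the substrate. Under interferon, and in lymphocytes also without it, the catalytic subunits Psmb5, Psmb6 and Psmb7 are replaced in new particles by Psmb8, Psmb9 and Psmb10, and the PA28 activator of Psme1 and Psme2 can sit on the core in place of a cap. The resulting immunoproteasome is known for cutting peptides that suit MHC class I molecules.

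Barcodes passed the quality filters with 1000 or more UMIs (unique molecular identifiers), 500 or more genes and no more than 10% of UMIs from mitochondrial genes, and were then required to hold at least 1 UMI of a CD3 gene and 1 of a CD8 gene. This left 8153 KO, 8966 WT, 8252 Aged and 9803 Young barcodes with 60805219 to 76204380 UMIs a library, between 93.0% and 96.9% of the barcodes past the quality filters. Median UMIs per barcode were 6870 in KO and 6341 in WT, and 5768 in Aged and 4510 in Young. All 5 CD3 and CD8 genes were detected in each library, with summed levels of 4053 to 4787 counts per 1000000 UMIs (CPM). The barcodes were selected on these same genes, so their detection is not a separate check of cell type. The gene named in the knockout, Bfar, stood at 22.4 CPM in KO against 32.1 CPM in WT, a ratio of 0.697 (0.654 to 0.743), so its transcripts were still counted in the library labelled KO. The sources used here do not name the deleted exons. KO and WT shared 20 barcode sequences, and Aged and Young shared 145, or 1.60% of the Aged and 1.31% of the Young barcodes in the files.

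Promoter windows are shown first, for the genes whose motif content bears on the later comparison of interferon and constitutive groups. Sequence from 250 bases upstream of the start site came from the RefSeq promoter table (GRCm38.p6), which held 36 of the 43 members, including all 5 immunoproteasome genes and 25 of the 31 constitutive genes. Both strands were searched for 5 motifs, and the only matches to different motifs that overlapped within a member were at Psmd9. In the windows below, written on the strand of the gene, capitals mark the matched bases.
Psmb8, gamma-activated site TTCNNNGAA, chr17:34198088-34198117, plus strand: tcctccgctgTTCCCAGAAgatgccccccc
Psmb3, interferon-stimulated response element core (GAAA, a gap of any 2 bases, GAAA) on the opposite strand, chr11:97703261-97703290, plus strand: cacagtgactTTTCACTTTCcgctttccat
Psmd4, the same core on the opposite strand, chr3:95042675-95042704, minus strand: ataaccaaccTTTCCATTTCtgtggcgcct
Psmb5, antioxidant response element core TGACNNNGC, chr14:54618023-54618052, minus strand: cgtgaagttgTGACGTCGCggcgttgccag
Psmb6, antioxidant response element core TGACNNNGC, chr11:70525327-70525356, plus strand: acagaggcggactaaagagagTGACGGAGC

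The gamma-activated site, a motif of the interferon gamma response, was found in 1 of 5 immunoproteasome promoters and in 0 of 25 constitutive ones, against 7.02% of all 32851 promoters. The match, at Psmb8, lay 97 to 89 bases before the RefSeq start and inside the Psmb8 gene interval given below. The interferon-stimulated response element core was found in 0 of 5 immunoproteasome promoters and in 2 of 25 constitutive ones (Psmb3 and Psmd4), against 2.98% of all promoters. The antioxidant response element core, the motif read by the proteasome gene regulators Nfe2l1 and Nfe2l2, was found in 0 of 5 immunoproteasome and 4 of 25 constitutive promoters (Psmb5, Psmb6, Psmc6 and Psmd12), against 10.2% of all. CCAAT was found in 1 of 5 and 10 of 25, against 33.8%, and GGGCGG in 3 of 5 and 14 of 25, against 32.7%. A match is a run of letters and not evidence of binding, and a promoter without a match in this window can hold a site elsewhere. For Psmb8, Psmb9 and Psme1 the searched bases lie inside the gene intervals given below, which begin upstream of the RefSeq starts used here.

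The first question was whether the immunoproteasome genes differ between CD8+ T cells of BFAR-CD8-KO and wild-type mice. They were close to equal. Psmb8, the inducible subunit of the chymotrypsin-like site (chromosome 17, 34197721 to 34201454, mm10), stood at 743 CPM in KO against 771 CPM in WT, a ratio of 0.964 (0.952 to 0.975). Psmb9, of the caspase-like site (chromosome 17, 34181987 to 34187764), stood at 281 CPM in KO against 303 CPM in WT, a ratio of 0.926 (0.909 to 0.944). Psmb10, of the trypsin-like site (chromosome 8, 105935735 to 105938444), stood at 161 CPM in KO against 169 CPM in WT, a ratio of 0.952 (0.929 to 0.977). When scaled by library total, each inducible catalytic subunit was thus slightly lower in KO, by more than the counting error. The log2 ratios were -0.053 for Psmb8, -0.11 for Psmb9 and -0.070 for Psmb10, beside a median of -0.048 over all measured genes. Under median-of-ratios scaling the 5 immunoproteasome genes had a median log2 ratio of -0.0056.

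The PA28 subunits were closer still to 1, and under median-of-ratios scaling both lay above it. Psme1, the alpha subunit (chromosome 14, 55578123 to 55581529), stood at 505 CPM in KO against 515 CPM in WT, a ratio of 0.981 (0.967 to 0.995). Psme2, the beta subunit (chromosome 14, 55587441 to 55591113), stood at 299 CPM in KO against 308 CPM in WT, a ratio of 0.970 (0.952 to 0.988). Its near-identical copy Psme2b, which could take reads from Psme2, was low, at 19.4 CPM in KO against 15.3 CPM in WT. Summed, the 5 genes stood at 1989 CPM in KO against 2066 CPM in WT, a ratio of 0.963 (0.956 to 0.969). Psmb8, Psmb9 and Psme1 overlap a gene on the other strand (Gm20496, Tap1 and Emc9), and so does the constitutive Psmb7 (Nek6), while Psmb5 overlaps Mir686 on its own strand. Without stated strand counting their reads cannot be told apart from those genes. Over all members 12 have an exon that overlaps a gene on the other strand and 2 on the same strand.

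The constitutive catalytic subunits were somewhat lower in KO. Psmb5, of the chymotrypsin-like site (chromosome 14, 54614119 to 54618022), stood at 138 CPM in KO against 155 CPM in WT, a ratio of 0.886 (0.862 to 0.910). Psmb6, of the caspase-like site (chromosome 11, 70525367 to 70527858), stood at 157 CPM in KO against 181 CPM in WT, a ratio of 0.870 (0.848 to 0.892). Psmb7, of the trypsin-like site (chromosome 2, 38588036 to 38644087), stood at 102 CPM in KO against 117 CPM in WT, a ratio of 0.874 (0.847 to 0.901). All 31 constitutive genes summed to 4263 CPM in KO against 4685 CPM in WT, a ratio of 0.910 (0.905 to 0.914). On the log2 scale the immunoproteasome ratio lay 0.081 above the constitutive ratio.

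**Figure D1:**
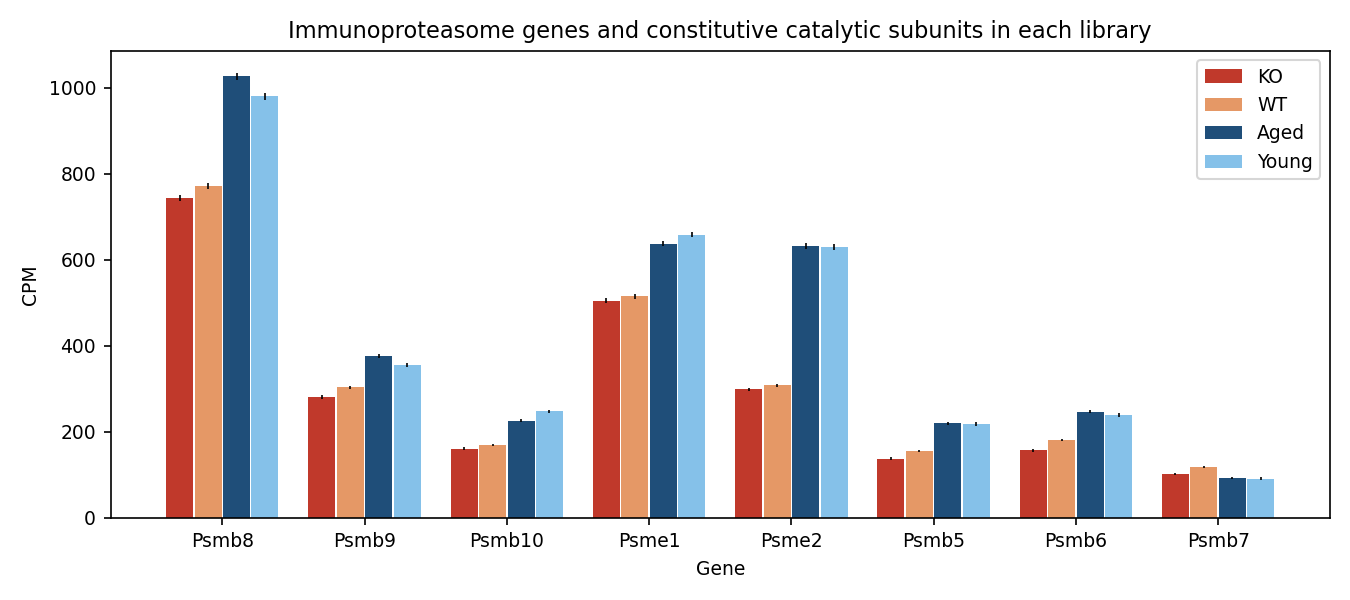
Levels of the 5 immunoproteasome genes and of the 3 constitutive catalytic subunits in each library, in CPM, with bars for the level and lines for the 95% Poisson interval. KO and WT bars lie close together at every gene, with KO the lower of each on this scale (under median-of-ratios scaling Psme1 and Psme2 were higher in KO), and Aged and Young bars differ in either direction by gene.

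The rest of the core and the cap followed the catalytic subunits. In the alpha ring, whose subunits form the gate, the sums were 1431 CPM in KO against 1580 CPM in WT, a ratio of 0.905 (0.898 to 0.913). Psma7 was nearest to equal (305 CPM in KO against 314 CPM in WT, ratio 0.970), and Psma6 was furthest (115 CPM in KO against 139 CPM in WT, ratio 0.824). In the non-catalytic beta ring, structural subunits that complete the ring, the sums were 1031 CPM in KO against 1150.5 CPM in WT, a ratio of 0.896 (0.887 to 0.905). Psmb1 had a ratio of 0.975 (387 CPM in KO against 396 CPM in WT), and Psmb4 a ratio of 0.829 (205 CPM in KO against 247 CPM in WT). All 7 alpha and all 4 non-catalytic beta genes were below 1, and all but Psma7 and Psmb1 were so under median-of-ratios scaling.

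The cap subunits were lower by a smaller margin. The ATPases, which unfold the substrate, summed to 464 CPM in KO against 495 CPM in WT, a ratio of 0.937 (0.923 to 0.951). Psmc3 had the highest ratio, 1.02 (0.986 to 1.05), with 107 CPM in KO against 106 CPM in WT. Psmc1 had the lowest of any member, 0.789 (0.749 to 0.832), with 35.2 CPM in KO against 44.6 CPM in WT. The non-ATPase subunits, which include the ubiquitin receptor Psmd4 and the deubiquitinase Psmd14, summed to 940.5 CPM in KO against 1006 CPM in WT, a ratio of 0.935 (0.925 to 0.945). Psmd8 was nearest to equal (159 CPM in KO against 162 CPM in WT, ratio 0.983), and Psmd7, the partner of Psmd14, had a ratio of 0.832 (85.3 CPM in KO against 103 CPM in WT).

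Chaperones of cap assembly and the PA28 gamma subunit Psme3, a nuclear activator, lay in the same range. The chaperones Psmd5, Psmd9 and Psmd10 summed to 94.7 CPM in KO against 109 CPM in WT, a ratio of 0.871 (0.843 to 0.899). Among them Psmd5 had the highest ratio, 0.878 (14.9 CPM in KO against 17 CPM in WT), and Psmd9 had a ratio of 0.870 (51.9 CPM in KO against 59.7 CPM in WT). Psme3 stood at 32.5 CPM in KO against 36.3 CPM in WT, a ratio of 0.896.

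Over the 40 proteasome genes that passed the rule for low counts (at least 20 UMIs over both libraries and 10 CPM in 1 of them), 39 lay below 1 in KO over WT and Psmc3 lay above, and under median-of-ratios scaling 33 lay below and 7 above. Counting intervals lay entirely below 1 for 36 of them. By log2 ratio, 57.0% of all measured genes lay below Psmd8 (-0.024) and 70.4% below Psmc3 (0.025). Most measured genes thus also lay below 1. The share of all genes with such intervals is not given here. A total of 4 of the 40 were at least 1.2 times lower in KO (Psmc1, Psma6, Psmb4 and Psmd7), beside 9.93% of all 7415 measured genes, so the share of members past that size is near the share of all genes. None was at least 1.2 times higher, beside 4.02% of all genes. At 1.5 times none passed, beside 0.607% of all genes higher and 3.09% lower. The median log2 ratio was -0.12 over the members and -0.048 over all measured genes. The tissue-restricted core subunits were not measured: Psma8 of testis had 8 UMIs in KO and 2 in WT, and Psmb11 of thymus had 4 and 0. Psmc3ip had 8.23 CPM in KO against 9.37 CPM in WT and was also below the rule.

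**Figure D2:**
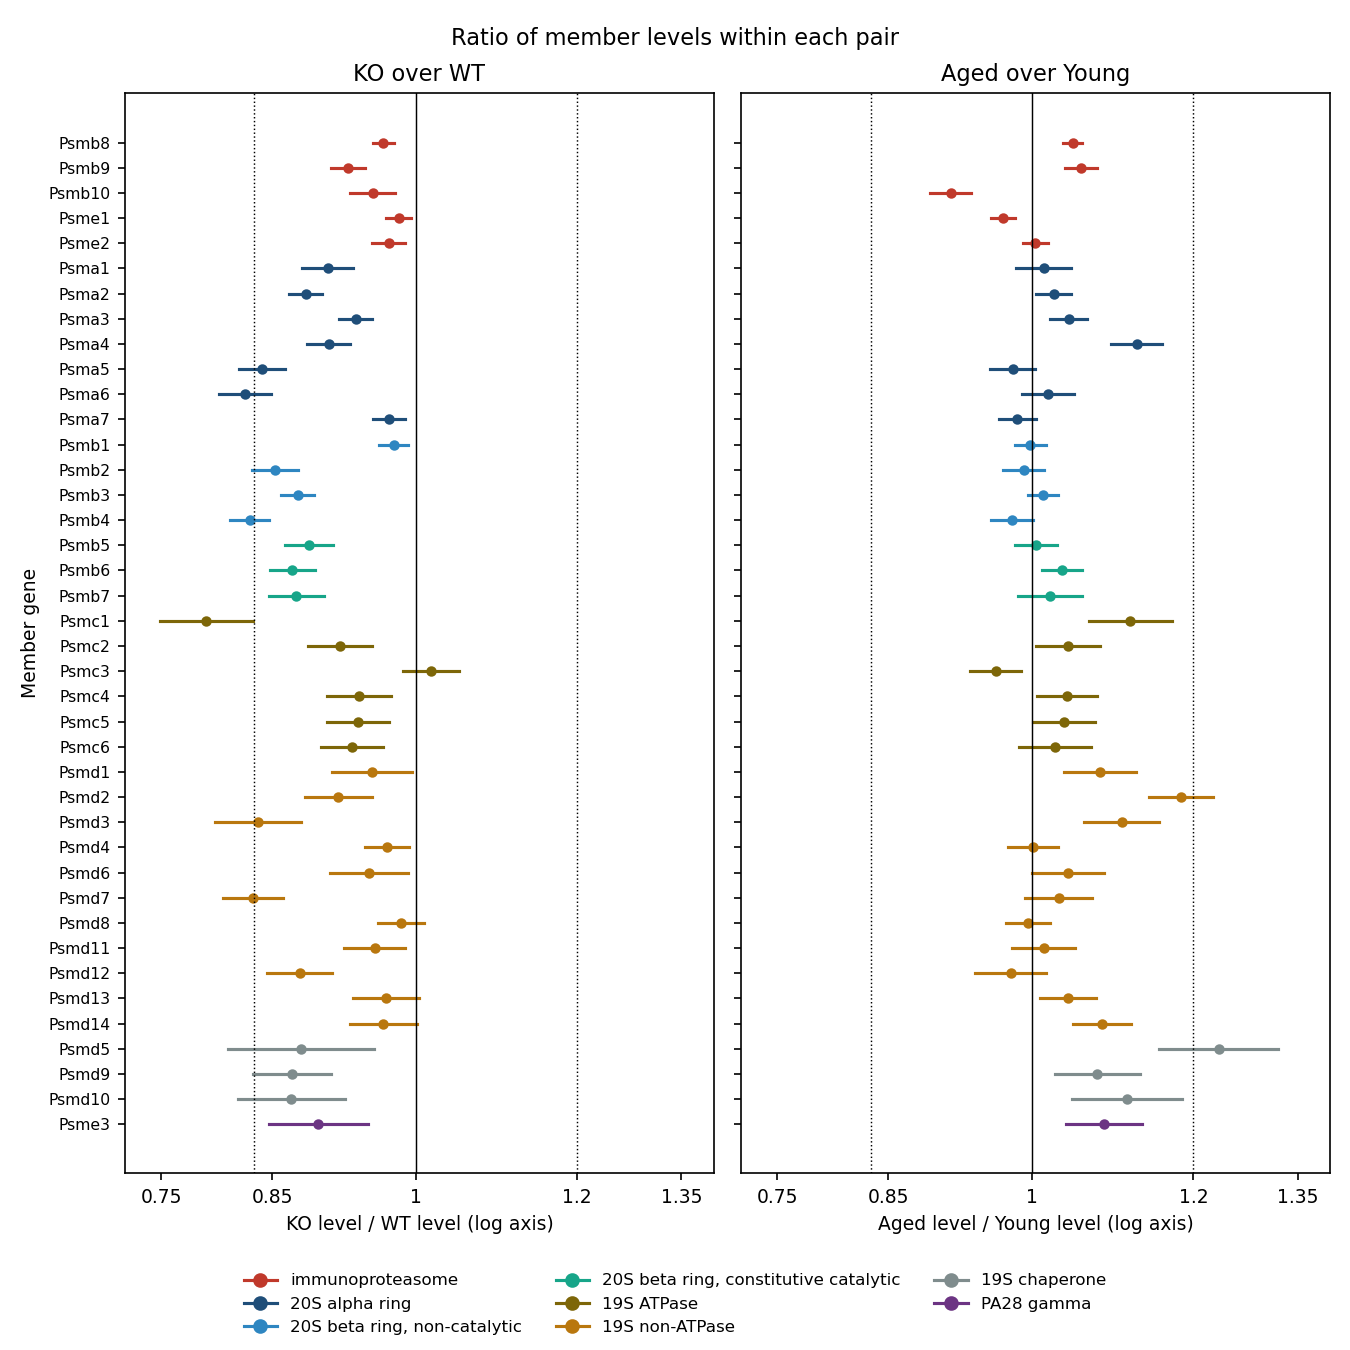
Ratio of the level of each of the 40 measured proteasome genes in KO over WT (left) and Aged over Young (right) on log axes, with 95% counting intervals and dotted lines at 1.2 times higher and lower. In KO over WT the points lie between 0.789 and 1.02, and in Aged over Young between 0.912 and 1.23, with the chaperone Psmd5 the highest.

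The gap between the groups of genes in KO over WT depended on which barcodes were used. Marker sums of other cell types differed between KO and WT in either direction. All 6 tumour or epithelial markers were detected in both libraries and summed to 148 CPM in KO against 391 CPM in WT. All 6 fibroblast markers summed to 45.7 CPM in KO against 281 CPM in WT, and all 5 mast or basophil markers to 101 CPM in KO against 288 CPM in WT. The monocyte or macrophage, B and erythroid lists were also lower in KO. The NK, endothelial, dendritic and neutrophil lists were higher in KO. NK markers summed to 52.2 CPM in KO, with Klra8 at 0, against 36.6 CPM in WT. A single gene gave 50.5 CPM of the NK sum in KO. UMIs of all these lists were added up without thinning, so a deeper barcode could reach a given count more readily. At least 3 such UMIs stood in 1400 KO barcodes (17.2%) and 1646 WT barcodes (18.4%). Without these barcodes the constitutive log2 ratio was -0.091 and the immunoproteasome one -0.13, a difference of -0.035. After each barcode was thinned to 2000 UMIs the difference was -0.022, and without the 8% deepest barcodes it was -0.020. The sign of the difference thus turns under these choices, while the constitutive sum stayed lower in KO under all of them. Under these 3 choices 35 to 37 of the 40 members stayed below 1, and 0 were at least 1.2 times lower.

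The second pair asked how T cells of old donors compare with those of young donors in the same kind of host, and the immunoproteasome genes divided when scaled by library total, with 3 above 1 and 2 below, while under median-of-ratios scaling all 5 lay below 1. Psmb8 stood at 1026 CPM in Aged against 980.4 CPM in Young, a ratio of 1.05 (1.04 to 1.06). Psmb9 stood at 375 CPM in Aged against 355 CPM in Young, a ratio of 1.06 (1.04 to 1.08). Psmb10 went the other way, with 226 CPM in Aged against 247 CPM in Young, a ratio of 0.912 (0.892 to 0.933). It was the lowest ratio of the 40 members in this pair.

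The PA28 subunits lay nearer to 1. Psme1 stood at 638 CPM in Aged against 659 CPM in Young, a ratio of 0.968 (0.955 to 0.981). Psme2 stood at 632 CPM in Aged against 629.5 CPM in Young, a ratio of 1.00 (0.990 to 1.02), and its copy Psme2b at 13.2 CPM in Aged against 15.7 CPM in Young. The 5 genes summed to 2897 CPM in Aged against 2871 CPM in Young, a ratio of 1.01 (1.00 to 1.02).

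The constitutive genes were also near equal. Psmb5 stood at 219 CPM in Aged against 218 CPM in Young, a ratio of 1.00 (0.981 to 1.03). Psmb6 stood at 247 CPM in Aged against 239 CPM in Young, a ratio of 1.03 (1.01 to 1.06). Psmb7 stood at 93.2 CPM in Aged against 91.4 CPM in Young, a ratio of 1.02 (0.984 to 1.06). The 31 genes summed to 5121 CPM in Aged against 5019 CPM in Young, a ratio of 1.02 (1.02 to 1.03). By role the sums were 1.02 for the alpha ring, 0.998 for the non-catalytic beta ring, 1.02 for the ATPases, 1.04 for the non-ATPase subunits and 1.12 (1.09 to 1.16) for the chaperones.

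Within those roles the spread was narrow. Psma4 had a ratio of 1.13 (153 CPM in Aged against 136 CPM in Young) and Psma5 of 0.978 (187 CPM in Aged against 192 CPM in Young). Psmb3 had a ratio of 1.01 (442 CPM in Aged against 436 CPM in Young) and Psmb4 of 0.978 (219.8 CPM in Aged against 225 CPM in Young). Psmc1, the lowest in KO over WT, was the highest ATPase here at 1.12 (58.9 CPM in Aged against 52.7 CPM in Young), and Psmc3 was the lowest at 0.960 (147 CPM in Aged against 153 CPM in Young). Psmd2, a scaffold of the cap, had a ratio of 1.18 (1.14 to 1.23; 103 CPM in Aged against 86.9 CPM in Young), and Psmd12, of the lid, 0.976 (76.8 CPM in Aged against 78.7 CPM in Young). The chaperone Psmd5 was highest at 1.23 (1.15 to 1.32; 30.8 CPM in Aged against 25.0 CPM in Young), and Psmd9 stood at 1.08 (56.0 CPM in Aged against 52.0 CPM in Young). Psme3 stood at 69.0 CPM in Aged against 63.6 CPM in Young, a ratio of 1.08.

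Of the 40 genes, 30 lay above 1 and 10 below, and counting intervals lay above 1 for 20 and below 1 for 3. By log2 ratio, 32.3% of all measured genes lay below Psmb1 (-0.0024) and 33.0% below Psmd4 (0.0013). Most measured genes thus also lay above 1. The share of all genes with such intervals is not given here. Only Psmd5 was at least 1.2 times higher, beside 17.9% of all 7938 measured genes, and none was at least 1.2 times lower, beside 8.42% of all genes. At 1.5 times none passed, beside 2.62% of all genes higher and 3.83% lower. The count of members past that size is thus below what the share over all genes would give in either direction, which is a description of these libraries. The median log2 ratio was 0.040 over the 40 genes and 0.083 over all measured genes, and under the median-of-ratios scaling 30 of the 40 lay below 1 and 10 above. Marker sums of other cell types differed in either direction, and were 67.3 CPM in Aged against 213 CPM in Young for the tumour or epithelial list and 45.2 CPM in Aged against 82.9 CPM in Young for the monocyte or macrophage list, and all 6 and all 9 of those genes were detected. The dendritic list summed to 20.5 CPM in Aged, with Cd209a at 0, and 53.8 CPM in Young, and the fibroblast list to 17.6 CPM in Aged against 48.9 CPM in Young, with Lum at 0 in both. Other lists were higher in Aged, with erythroid markers at 34.3 CPM in Aged against 2.63 CPM in Young and neutrophil markers at 6.82 CPM in Aged against 2.86 CPM in Young, and all 4 genes of each were detected in both. Without barcodes carrying at least 3 UMIs of other cell types, 36 of the 40 lay above 1 and the immunoproteasome sum had a log2 ratio of 0.045.

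Laid side by side, 30 genes were below 1 in KO over WT and above 1 in Aged over Young, 9 were below 1 in both, 1 (Psmc3) was above in the first and below in the second, and 0 were above in both. These counts hold for scaling by library total. Under median-of-ratios scaling 33 of the 40 lay below 1 in KO over WT and 30 of the 40 in Aged over Young, so the opposed directions depend on the scaling. The pairs do not share samples. The differences are small. Over all measured genes the median log2 ratios were also of opposite sign, -0.048 in KO over WT and 0.083 in Aged over Young. The share of all genes with each of these patterns is not given here.

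The balance at each catalytic site was described as the share of UMIs of the inducible subunit among the UMIs of both subunits of that site. It is a share of transcripts and not of protein. At the chymotrypsin-like site Psmb8 made up 84.4% (84.1 to 84.7) in KO and 83.2% (83.0 to 83.5) in WT, and 82.4% (82.1 to 82.7) in Aged and 81.8% (81.5 to 82.1) in Young. At the caspase-like site Psmb9 made up 64.1% (63.6 to 64.7) in KO and 62.7% (62.2 to 63.2) in WT, and 60.3% (59.8 to 60.8) in Aged and 59.8% (59.3 to 60.3) in Young. At the trypsin-like site Psmb10 made up 61.1% (60.4 to 61.8) in KO and 59.0% (58.3 to 59.7) in WT, and 70.8% (70.1 to 71.4) in Aged and 73.0% (72.4 to 73.6) in Young. The KO share was above the WT share at all 3 sites without overlap of the counting intervals. The Aged share was above the Young share at the chymotrypsin-like site, overlapped it at the caspase-like site and was below it at the trypsin-like site. The shares were not computed under the other choices of barcodes. In KO over WT the log2 difference of the immunoproteasome and constitutive sums (0.081) turned sign under 3 of those choices. It was -0.022 thinned, -0.035 without barcodes with markers of other cell types and -0.020 without the 8% deepest barcodes.

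Barcodes with neither a CD3 nor a CD8 UMI carried lower inducible shares. They were few, 62 in KO and 174 in WT, and 272 in Aged and 321 in Young, and mixed in kind. The share at the chymotrypsin-like site was 72.7% (69.6 to 75.7) in KO and 67.1% (65.2 to 68.9) in WT, and 78.1% in Aged and 72.9% in Young. At the caspase-like site it was 48.2% in KO and 41.1% in WT, and 57.5% in Aged and 51.0% in Young. At the trypsin-like site it was 44.9% in KO and 36.7% in WT, and 56.1% in Aged and 53.6% in Young. In all 4 libraries and at all 3 sites the CD3 and CD8 positive barcodes had the higher share. Because CD3 and CD8 detection also depends on depth and on cell type, this is not a comparison of cell types.

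**Figure D3:**
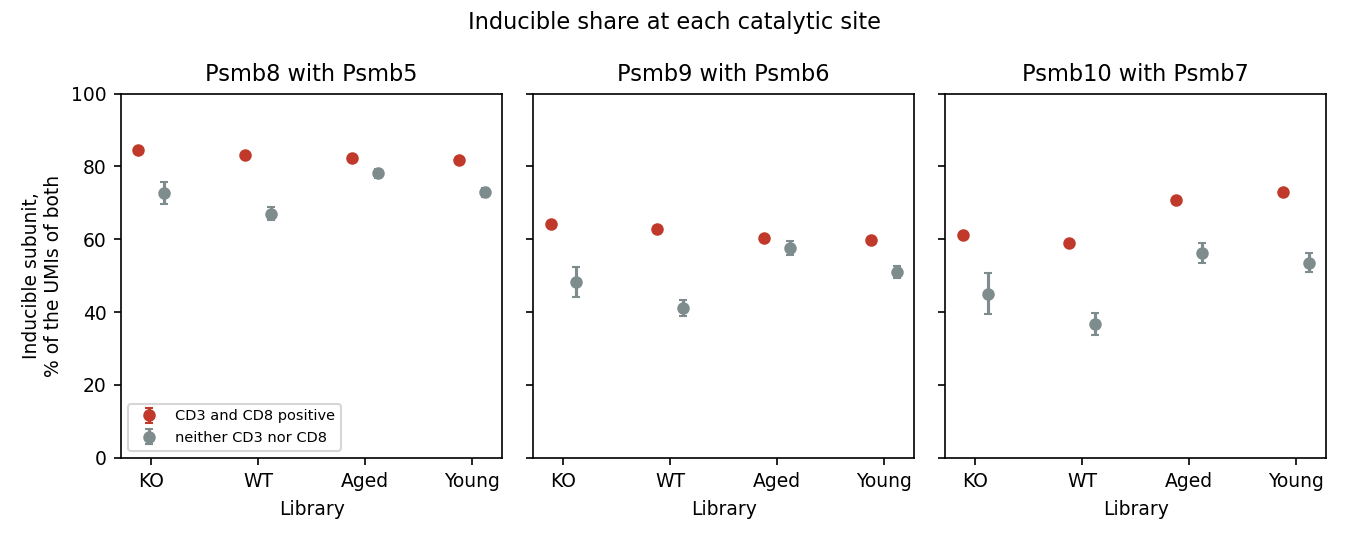
Share of UMIs at each catalytic site that came from the inducible subunit, in percent, for CD3 and CD8 positive barcodes (left points) and barcodes with neither (right points) in each library, with 95% exact intervals. The CD3 and CD8 positive points lie above the others at every site and library, and by the least at the caspase-like site in Aged.

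Members were next compared between cell states within each library. Each barcode was thinned to 2000 UMIs and sorted by its UMIs of a state list into 0, 1 to 2, and 3 or more, and the level of the members was then read from the full counts. The lists were cell cycle genes such as Mki67 and Top2a, type I interferon response genes such as Isg15 and Ifit1, inhibitory receptor and exhaustion genes such as Pdcd1 and Tox, and naive and memory genes such as Tcf7. None holds a member. The ratios are the level at 3 or more UMIs over the level at 0. The cut is on a running scale: 391 to 562 barcodes a library held exactly 3 cell cycle UMIs and 1107 to 1201 held 2. Since cells of a library are not replicates, agreement over the 4 libraries is the only repeat, and the smallest two-sided exact sign-flip p that 4 libraries could give is 0.125.

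Constitutive proteasome genes were higher in barcodes with cell cycle transcripts, and immunoproteasome genes were nearly level. With 3 or more cell cycle UMIs the constitutive sum was 5277 CPM in KO and 5769 in WT, and 5973 in Aged and 5921 in Young, against 3878, 4079, 4319 and 4318 CPM at 0. The ratios were 1.36, 1.41, 1.38 and 1.37 in the same order of libraries, and those of the immunoproteasome sum were 1.07, 1.04, 1.06 and 1.09. All 31 constitutive genes were above 1 in all 4 libraries, and 25 of them were at least 1.2 times higher in all 4. The other 6 were Psma3, Psmb1, Psmc5, Psmd4, Psmd8 and Psmd11. In single libraries 28 (KO), 30 (WT), 26 (Aged) and 28 (Young) of the 31 passed that size, beside 35.7%, 37.6%, 29.2% and 31.2% of all measured genes. The share of all genes above 1, or past that size, in all 4 libraries is not given here.

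The catalytic subunits Psmb5, Psmb6 and Psmb7 had ratios of 1.41 to 1.58, 1.45 to 1.65 and 1.46 to 1.51 over the libraries. Psmd1, a scaffold of the cap chosen here because its ratio was the highest in KO, ranged over 1.59 to 1.92, and Psmb1 over 1.05 to 1.13. Of the immunoproteasome genes only Psmb9 was at least 1.2 times higher in all 4 libraries, with ratios of 1.26 to 1.37, and Psme1 was below 1 in all 4, with ratios of 0.888 to 0.908. Psmc3ip, the recombination factor that shares only the letters, had ratios of 4.28, 6.67, 6.46 and 5.96 in KO, WT, Aged and Young. It stands apart from the proteasome genes in size.

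Depth moved with the cell cycle list. Barcodes with 3 or more cell cycle UMIs had median totals of 11246 UMIs in KO and 10857 in WT, and 10156 in Aged and 8138 in Young, against 6571, 6029.5, 5191 and 4270 at 0. The constitutive level was also higher in deeper barcodes. In KO it was 3546 CPM in barcodes from 2000 to under 4000 UMIs, 3794 CPM at 4000 to 8000 and 4618 CPM over 8000. Within barcodes of 4000 to 8000 UMIs the constitutive ratios were 1.09 in KO and 1.16 in WT, and 1.14 in Aged and 1.21 in Young, and those of the immunoproteasome sum were 1.04, 1.18, 1.07 and 1.09. At matched depth the constitutive sum thus stayed higher in all 4 libraries by a smaller margin, and in WT the immunoproteasome sum was as high. The counts of single constitutive genes were not repeated at matched depth.

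**Figure D4:**
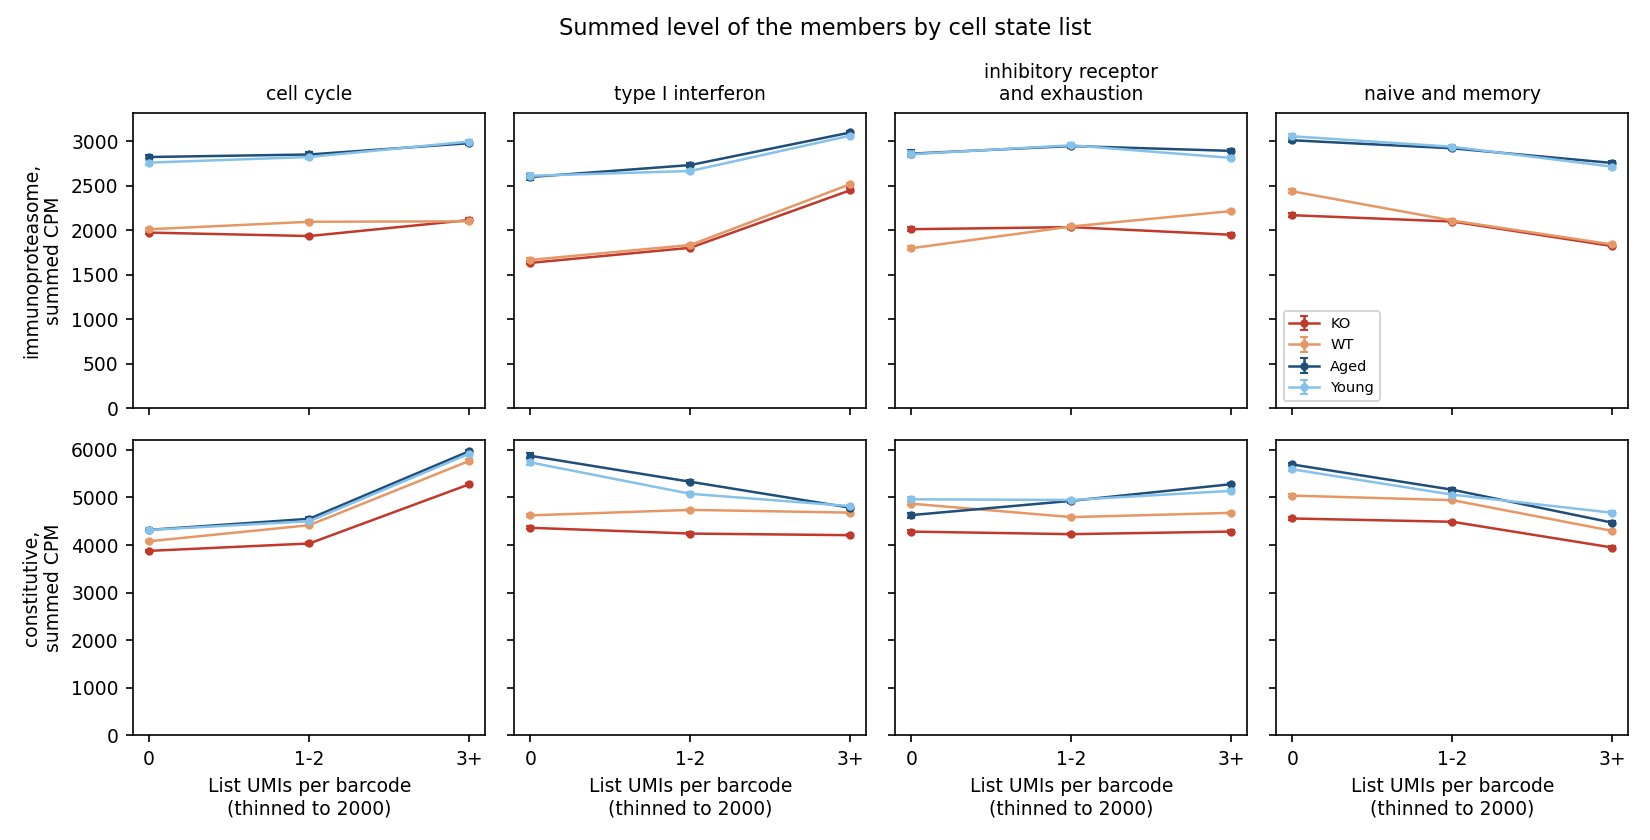
Summed level of the immunoproteasome genes (top) and the constitutive genes (bottom), in CPM, in barcodes with 0, 1 to 2 and 3 or more UMIs of each of 4 state lists after thinning to 2000 UMIs, with 95% Poisson intervals. The constitutive lines climb with the cell cycle list, and the immunoproteasome lines climb with the type I interferon list, in all 4 libraries.

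Immunoproteasome genes were higher in barcodes with type I interferon response transcripts. Their sum was 2449 CPM in KO and 2517 in WT, and 3097 in Aged and 3062 in Young with 3 or more list UMIs, against 1632, 1665, 2597 and 2610.4 CPM at 0. The ratios were 1.5 in KO and 1.51 in WT, and 1.19 in Aged and 1.17 in Young. Psmb10 and Psme1 were at least 1.2 times higher in all 4 libraries, with ratios of 1.86, 1.74, 1.4 and 1.43 for Psmb10 and 1.47, 1.45, 1.29 and 1.31 for Psme1. Psmb8 (1.53, 1.55, 1.14 and 1.09), Psmb9 (1.62, 1.62, 1.19 and 1.17) and Psme2 (1.25, 1.32, 1.13 and 1.11) were above 1 in all 4. The number past 1.2 was 5 of 5 in KO and in WT and 2 of 5 in Aged and in Young, beside 11.5%, 15.2%, 25.8% and 22.3% of all measured genes.

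The constitutive genes did not follow. Their sums had ratios of 0.964 in KO and 1.01 in WT, and 0.814 in Aged and 0.840 in Young, and none of the 31 was at least 1.2 times higher or lower in all 4 libraries. In Aged 21 and in Young 16 of them were at least 1.2 times lower, beside 23.9% and 23.7% of all genes, and 1 in KO and 0 in WT, beside 10.8% and 9.94%. Depth was lower where the interferon list was high in Aged (median 5399 UMIs against 8034) and Young (4418 against 5846), and less so in KO (6676 against 7086) and WT (6096 against 6654). Barcodes with 3 or more list UMIs were 38.0% in KO and 42.9% in WT, and 59.6% in Aged and 59.2% in Young, and those at 0 were 10.2% in Aged and 11.1% in Young. In barcodes with no cell cycle UMI the immunoproteasome ratios were 1.60, 1.59, 1.29 and 1.32 and the constitutive ones 1.01, 1.01, 0.948 and 0.972, so the separation of the groups of genes was present there too. Within 4000 to 8000 UMIs they were 1.70, 1.67, 1.18 and 1.27, and 1.03, 1.05, 0.964 and 0.966. Mx1, a gene of the type I interferon list, was not analysed here.

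**Figure D5:**
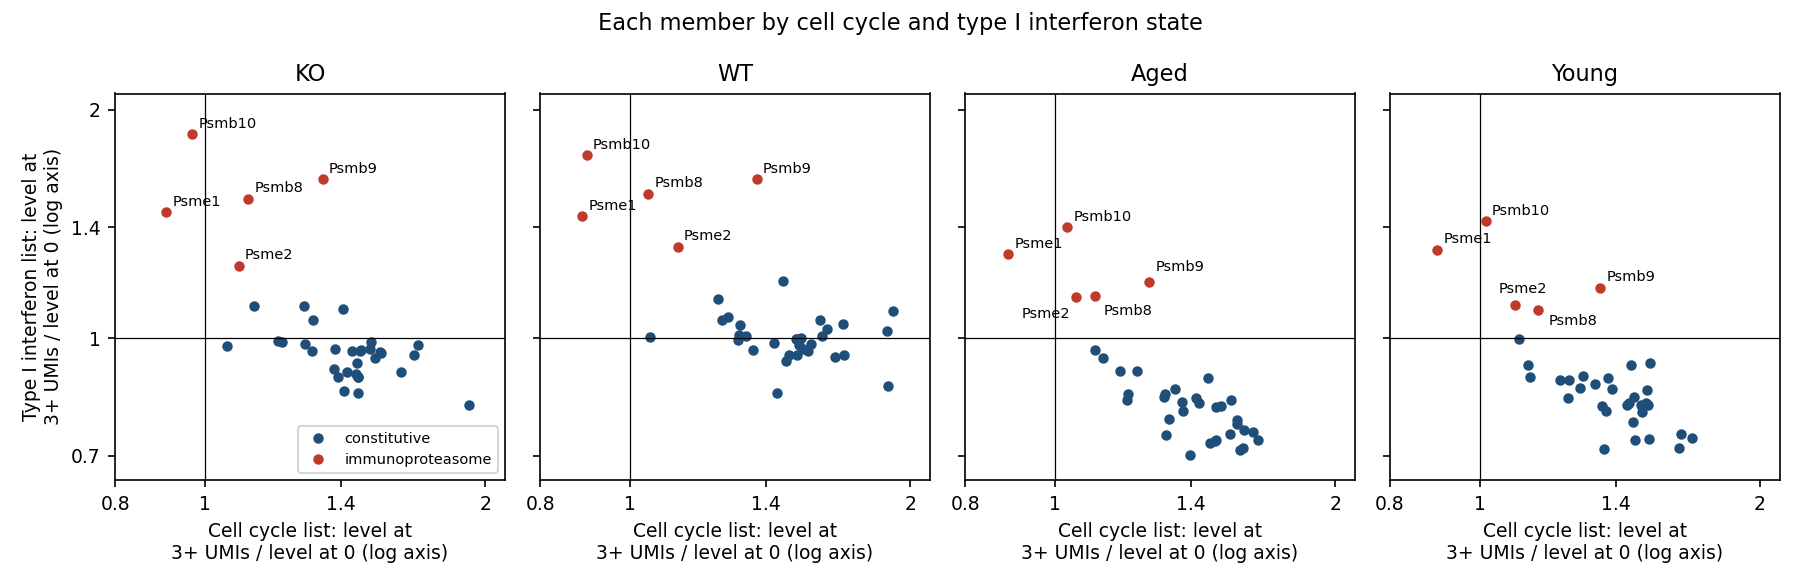
For each member in each library, the ratio of its level at 3 or more to 0 UMIs of the cell cycle list (x, log axis) against the same ratio for the type I interferon list (y, log axis). Constitutive genes lie to the right of 1, and immunoproteasome genes lie above 1 on the y axis in all 4 libraries.

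Members were lower in barcodes with naive and memory transcripts. The constitutive ratios were 0.866 in KO and 0.853 in WT, and 0.785 in Aged and 0.837 in Young, and the immunoproteasome ratios 0.840, 0.755, 0.915 and 0.888. Of the 31 constitutive genes 30 were below 1 in all 4 libraries, and 6 were at least 1.2 times lower in all 4 (Psma1, Psma4, Psmb3, Psmb5, Psmd13 and Psmd14). In single libraries 12 (KO), 10 (WT), 25 (Aged) and 15 (Young) were at least 1.2 times lower, beside 21.3%, 26.7%, 26.2% and 20.8% of all genes. The share of all genes below 1, or past that size, in all 4 libraries is not given here. Psmb9 was the only immunoproteasome gene past that size in all 4, with ratios of 0.708 in KO and 0.595 in WT, and 0.797 in Aged and 0.725 in Young. Within barcodes of 4000 to 8000 UMIs the constitutive ratios were 0.903, 0.833, 0.898 and 0.910, and the immunoproteasome ratios 0.820, 0.730, 0.880 and 0.869, in the same order of libraries.

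With inhibitory receptor and exhaustion transcripts the libraries did not share a direction. The immunoproteasome ratios were 0.969 in KO and 1.23 in WT, and 1.01 in Aged and 0.985 in Young. The constitutive ratios were 1.00 in KO and 0.961 in WT, and 1.14 in Aged and 1.04 in Young. Psmb9 was above 1 in all 4 libraries (1.17 in KO and 1.62 in WT, and 1.24 in Aged and 1.11 in Young), and Psmb10 was below 1 in KO (0.819), Aged (0.948) and Young (0.933) and above 1 in WT (1.09). Without barcodes carrying markers of other cell types the constitutive ratios were 1.11 in KO and 1.16 in WT, and 1.16 in Aged and 1.06 in Young, so they lay above 1 in all 4 libraries. The immunoproteasome ratios were then 0.956, 1.15, 1.02 and 0.948.

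Comparing KO with WT within equal strata left the constitutive genes lower. Each of the 4 lists divides the same barcodes, so the strata of different lists overlap and are not separate comparisons. Over the 12 strata of the 4 lists the constitutive ratio ranged from 0.879 to 0.951, below 1 in all 12, and the immunoproteasome ratio from 0.880 to 1.12, below 1 in 10. For Aged over Young the constitutive ratio ranged from 0.933 to 1.05, below 1 in 4 of 12, and the immunoproteasome ratio from 0.985 to 1.03, below 1 in 5.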

How the data were processed

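The authors deposited whole-number UMI counts per gene and cell barcode for each library. Per the file headers Cell Ranger 6.1.1 wrote KO and WT and 7.1.0 wrote Aged and Young. The submitters' processing notes list mm10, Seurat 3.2.3 and Cell Ranger 6.0.0. The sources used here do not state strand counting or the annotation release. KO and WT were, per the labels, made with a 3' kit and Aged and Young with an immune profiling kit. That difference, and the version of Cell Ranger, can shift levels between pairs, so only KO over WT and Aged over Young were compared.

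UMIs were summed over the kept barcodes and divided by their total to give CPM. Levels carry exact Poisson intervals, ratios exact conditional binomial intervals and shares exact Clopper-Pearson intervals. Log2 ratios used a pseudocount of 1 CPM. Library totals give intervals of a few percent or less for most members, and PCR and sampling of mice are not covered. No doublet caller was run, and leaving out the 8% deepest barcodes stands in for it. The ratio calculation was tested on simulated data. Gene positions came from a GENCODE annotation of mm10. The members and all gene lists, state lists and markers were chosen with earlier results of these data known. Genes were named by role: the 5 immunoproteasome genes, Psmb5, Psmb6, Psmb7, and the highest and lowest member of each other subunit list in each pair, and of other lists the highest and lowest gene. Some genes of those other lists are not reported here. Genes outside that rule (Psmd1, Psmc3ip, Psme3 and those in counts of 6 or fewer) were named after their values were seen. Thinning drew 2000 UMIs a barcode and left out 45 KO, 80 WT, 201 Aged and 611 Young barcodes. Alternatives were another library size, other barcode rules, thinning and equal weights of states. Those on the state comparisons, and the equal weights of naive and memory strata, were chosen after seeing the data. Python 3.11.15, numpy 2.4.6, scipy 1.17.1 and pandas 2.3.3 were used.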

Additional observations from a re-analysis of the deposited data

Results flagged for a closer look

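In a pair of state comparisons, the KO and WT libraries lay on opposite sides of 1 with intervals that both left out 1. The difference between the libraries was not tested, since each is a single library. The constitutive sum at 3 or more over 0 type I interferon UMIs had a ratio of 0.964 (0.956 to 0.973) in KO and 1.01 (1.004 to 1.021) in WT. In barcodes with no cell cycle UMI both were 1.01. The immunoproteasome sum at 3 or more over 0 inhibitory receptor and exhaustion UMIs had a ratio of 0.969 (0.955 to 0.983) in KO and 1.23 (1.22 to 1.25) in WT. Its levels were 1947 CPM at 3 or more and 2010.0 CPM at 0 in KO, and 2214 CPM and 1796 CPM in WT. In barcodes of 4000 to 8000 UMIs the ratios were 0.942 in KO and 1.14 in WT, and without barcodes carrying markers of other cell types they were 0.956 and 1.15.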

How the results depend on the processing

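No paired analysis was possible because each group held 1 library. No value that lay past 1.2 times changed its direction under any setting. Log2 ratios are given here, with the reported value first. In KO over WT the immunoproteasome sum (-0.055) was -0.0044 over all barcodes past the filters, -0.033 with equal weights of type I interferon strata, -0.0076 with median-of-ratios library size, -0.11 thinned to 2000 UMIs, -0.13 without barcodes with markers of other cell types and -0.12 without the 8% deepest barcodes. The constitutive sum (-0.14) was -0.19, -0.089, -0.089, -0.091 and -0.098 over all barcodes, with median-of-ratios, thinned, without other markers and without the deepest, -0.11 with equal weights of cell cycle strata and -0.13 with totals lacking ribosomal protein and mitochondrial genes. Their difference (0.081) was 0.19 over all barcodes, 0.061 and 0.10 with equal cell cycle and type I interferon weights, -0.022 thinned, -0.035 without other markers and -0.020 without the deepest. The count of members at least 1.2 times lower (4) was 10 over all barcodes, 1 with equal cell cycle weights, 1 with median-of-ratios, and 0 at a size of 1.5 times, thinned, without other markers and without the deepest. The count higher (0) was 2 with no filter on low counts.

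In Aged over Young the immunoproteasome sum (0.013) was 0.026 over all barcodes, -0.070 with median-of-ratios, 0.037 thinned, 0.045 without other markers, 0.051 without the deepest and -0.0022 with equal naive and memory weights. The constitutive sum (0.029) was 0.013 over all barcodes, 0.011, 0.0056 and -0.0010 with equal cell cycle, exhaustion and naive and memory weights, -0.054 with median-of-ratios, 0.019 thinned and 0.072 without other markers. Their difference (-0.016) was 0.013 over all barcodes, -0.0026, 0.015 and -0.0012 with those weights, 0.017 thinned and 0.028 without the deepest. The count higher (1) was 0 with median-of-ratios and at 1.5 times, and 2 thinned and without other markers. The count lower (0) was 2 with no filter.

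For the state comparisons the median over the 4 libraries of the log2 ratio by cell cycle was 0.46 for the constitutive sum and 0.41 without other markers, 0.20 in barcodes of 4000 to 8000 UMIs and 0.37 thinned. For the immunoproteasome sum it was 0.089, and 0.16 without other markers and 0.14 thinned. By naive and memory strata the constitutive median was -0.24, and -0.15 both in barcodes of 4000 to 8000 UMIs and with 0 cell cycle UMIs. The cause of these shifts was not tested.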

Other observations

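Genes around the proteasome were described by the same size rule of 1.2 times. Of 17 assembly factors and regulators, 1 was lower in KO (Psmg1, an assembly chaperone, 10.4 CPM in KO against 13.0 CPM in WT, ratio 0.798), and the highest was Nfe2l2, a transcription factor of the oxidative stress response, at 1.17. In Aged, 3 were higher, Psmg3 (1.23), Nfe2l1 (1.22) and Ecpas (1.21), and 1 was lower, Nfe2l2, with 40.7 CPM in Aged against 63.7 CPM in Young, a ratio of 0.639 (0.608 to 0.671). Of 14 ubiquitin genes and shuttles none passed in KO over WT, where the shuttle Rad23b was the lowest at 0.882. The highest of them in Aged over Young was Ubqln4 at 1.19. The median log2 ratio was -0.084 for the assembly list and -0.060 for the ubiquitin list in KO over WT, and 0.00049 and 0.0043 in Aged over Young. Of all measured genes, 4.02% were at least 1.2 times higher and 9.93% lower in KO over WT. The shares in Aged over Young were 17.9% higher and 8.42% lower.

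Among 16 genes that load peptides on MHC class I molecules, Tap1, a peptide transporter that lies next to Psmb9, was the highest in KO over WT, at 175 CPM in KO against 159 CPM in WT, and Pdia3 was lowest in KO over WT at 0.881. In Aged over Young, 2 of the genes were at least 1.2 times higher, Tapbpl (1.31) and Tap1 (1.24, 287 CPM in Aged against 231 CPM in Young), and H2-D1 was lowest at 0.907. Of 20 measured genes of the interferon gamma response, 4 were higher in Aged (among them Gbp5 1.34, Irf8 1.24 and Stat2 1.21) and 2 lower (Socs1 0.751 and Cd274 0.756). Of all measured genes 17.9% were at least 1.2 times higher in Aged and 8.42% lower, so the response counts are near those shares. In KO over WT, Iigp1 (0.701) and Stat2 (0.819) of 19 were at least 1.2 times lower, beside 9.93% of all measured genes. Tgtp2 had the highest ratio there, at 1.16. The medians of the loading and response lists were 0.011 and 0.070 in KO over WT, and 0.015 and 0.12 in Aged over Young.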
